A study of Canis lupus familiaris with 9 samples.

Results

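Members of the KLF and EGR families of zinc finger transcription factors were followed in canine monocyte-derived macrophages at rest and after polarization. The 10 genes were chosen by name (KLF2, KLF3, KLF4, KLF6, KLF7, KLF10, KLF11, EGR1, EGR2 and EGR3), and 9 of them were matched by gene symbol among the 12696 protein coding genes of the table. KLF2 was not analysed here. Macrophages were grown from adherent blood monocytes of healthy spayed female beagles about 2 years of age, for 7 days in human M-CSF (10 ng/mL). The next 24 h passed without a polarizing cytokine for resting M0 cells, with canine IFN-γ (20 ng/mL) for inflammatory M1 cells, or with canine IL-13 plus IL-4 (each 20 ng/mL) for anti-inflammatory M2 cells. Poly-A RNA of 9 samples, 3 per group, was sequenced, and the 3 sample descriptions recur in every group, as they would for 3 unrelated dogs.

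KLF proteins bind GC-rich and CACCC elements through a block of zinc fingers at their C terminus, and differ in the cofactors that their N termini recruit. KLF2 and KLF4 are known to restrain inflammatory gene expression in myeloid and endothelial cells, and in mouse macrophages KLF4 takes part in the response to IL-4 through STAT6. EGR proteins bind a related GC-rich element. EGR1 is a classical immediate early gene driven by ERK signaling and serum response factor, EGR2 is known in mouse macrophages as an IL-4 induced regulator of the late response, and the NAB proteins hold EGR activity back.

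Values are the authors' mean of normalized counts for each group. They carry no spread between dogs, so no difference between groups was tested and the words higher and lower refer to these means. Ratios were computed here from the means as log2 of (mean + 1) over (mean + 1), and a gene was counted as differing where the log2 ratio was at least 1 in size, that is 2-fold. Each comparison shares a group with the others, and the M2 over M1 ratio follows from the ratios over M0. Normalized counts depend on gene length, and members are therefore compared with themselves across groups and not with each other by level. In bulk RNA, fewer cells of a type and less RNA per cell cannot be told apart.

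Cytokine response genes and cell type markers were looked at first. The lists were chosen with earlier results of these data known, so they give no independent check of the labels. On the IFN-γ response list 10 of 11 measured genes were at least 2-fold higher in M1 than in M0, with IDO1 at 159 in M0 and 104559 in M1 normalized counts, and 6 of 11 were also at least 2-fold higher in M2 than in M0. On the list for IL-4 and IL-13, 7 of 13 measured genes were at least 2-fold higher in M2 than in M0, with FCER2, the low-affinity IgE receptor, at 51.5 and 3735 normalized counts, and 5 of 13 were at least 2-fold lower in M1 over M0 and 3 higher, the latter including the transglutaminase TGM2, at 2383, 32911 and 6412 normalized counts in M0, M1 and M2. Of 15 macrophage markers 14 were measured, and their summed level was 318324 (M0), 176281 (M1) and 281385 (M2) normalized counts. Markers of other cell types were looked at as well. The lowest mean of any gene in any group was 0.912, so a marker above 0 tells nothing about such cells. The T cell marker CD3E was at 92.8, 88.8 and 161.9 normalized counts in M0, M1 and M2, and the 8 T cell markers summed to 1741, 7402 and 1416, the M1 sum being mostly CD2 and CD28. Of 6 dendritic cell markers 3 were measured, and they summed to 2633, 1424 and 60773, the M2 sum being mostly CD1C.

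**Figure D1:**
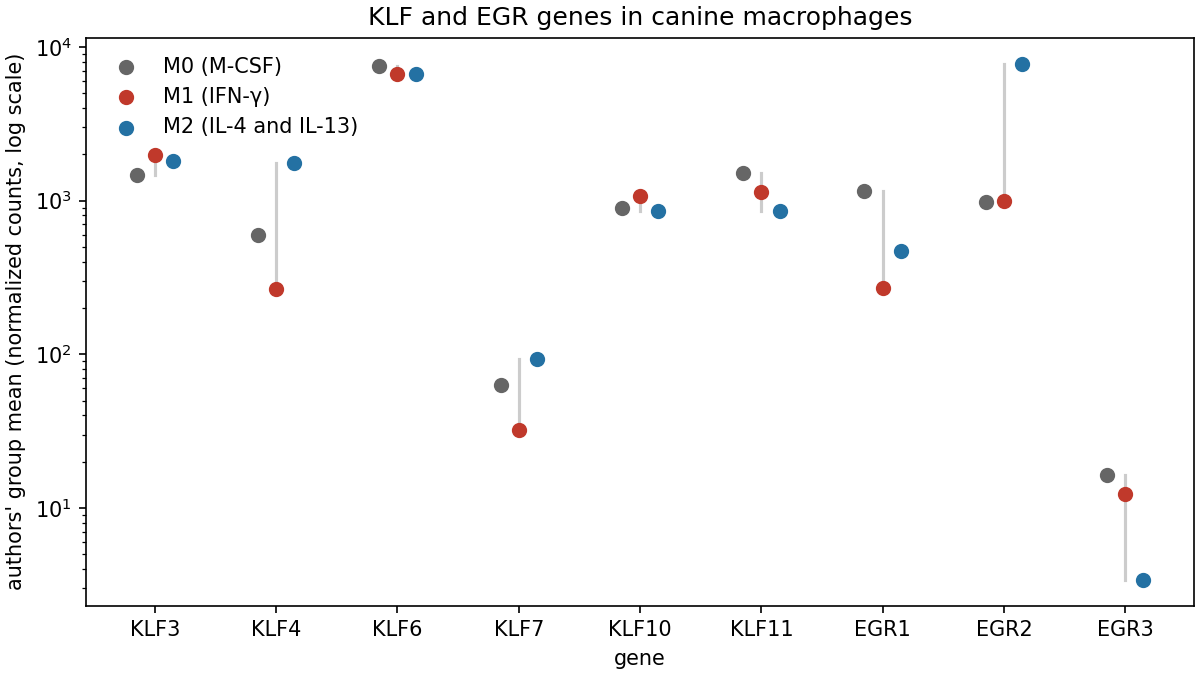
Authors' group means of the 9 KLF and EGR genes, in normalized counts on a log axis, for M0 (grey), M1 (red) and M2 (blue); a grey line joins the lowest and the highest mean of a gene and no error is available. EGR2 stands at 7773 in M2 against 974 and 989 in the other groups, while the 3 means of KLF6 lie between 6650 and 7543.

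The members split into genes whose means were far apart between groups and genes whose means were close. EGR2, KLF4, EGR1 and EGR3 had the widest spans, with the highest group mean 7.97, 6.64, 4.28 and 3.93 times the lowest on the (mean + 1) scale. KLF7 followed at 2.82 times. KLF11, KLF3, KLF10 and KLF6 spanned 1.75, 1.34, 1.24 and 1.13 times. The median span was 2.82 times over the 9 members and 1.41 times over all genes. A span as wide as that of EGR2 was seen in 2.37% of all genes, and one as wide as that of KLF6 in 86.0%.

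The EGR genes were led by EGR2 in M2 macrophages. EGR2 means were 974 (M0), 989 (M1) and 7773 (M2) normalized counts. M0 and M1 were close, at a log2 ratio of 0.02, and M2 stood apart from both. The log2 ratio of M2 over M0 was 2.99, and 0.441% of all genes had a ratio as large in either direction. Against M1 the log2 ratio was 2.97. Of 8 T cell markers, 4 were higher and 4 lower in M2 than in M0, with CD3D and CD3E at log2 ratios of 0.85 and 0.80 and CD28 at 77.4 normalized counts in M0 and 26.7 in M2. All 3 measured dendritic cell markers were at least 2-fold higher in M2 than in M0, beside 3.40% of all genes. Their log2 ratios were 4.56 (CD1C), 3.65 (BATF3) and 1.22 (ZBTB46). The part of such cells in the EGR2 and KLF4 values was not tested.

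EGR1, the immediate early member, ran the other way. Its means were 1158 (M0), 270 (M1) and 467 (M2) normalized counts. Resting cells were highest, M1 lowest and M2 between them. The log2 ratio was -2.10 for M1 over M0 and -1.31 for M2 over M0, ratios matched in size by 3.55% and 4.28% of all genes. Between the polarized states the log2 ratio of M2 over M1 was 0.79, short of 2-fold. Of 6 neutrophil markers 3 were measured, with sums of 895 (M0), 389 (M1) and 145 (M2). S100A12, a calgranulin that monocytes also carry, and CSF3R, the G-CSF receptor, were likewise highest in M0, at 229.7 and 664 normalized counts, whereas MPO was highest in M2, at 29.3 normalized counts against 3.61 in M1 and fewer in M0. The part of such cells in the EGR1 value was not tested.

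The ratio of EGR2 to EGR1 normalized counts was 19.8 times its M0 value in M2 and 4.34 times its M0 value in M1, a measure in which gene length cancels. In M1 the EGR2 mean was close to that of M0 and EGR1 was lower, and in M2 EGR2 was higher and EGR1 lower.

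EGR3, known in other cells as a target of the same signals as EGR1 and EGR2, was barely detected. Its means were 16.3 (M0), 12.4 (M1) and 3.40 (M2) normalized counts, where the lowest mean of any gene in any group was 0.912. M2 was lowest, with log2 ratios of -1.98 over M0 and -1.60 over M1. With 10 normalized counts added to each mean in place of 1, they were -0.97 and -0.74, short of 2-fold.

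Among the KLF genes, KLF4 had the largest ratio between the polarized states. Mean levels of KLF4 were 596 (M0), 265 (M1) and 1765 (M2) normalized counts. M1 lay below M0 and M2 above it, with log2 ratios of -1.17 and 1.56. M2 over M1 gave 2.73, a size reached by 2.00% of all genes. KLF4 was the sole member at least 2-fold apart in all 3 comparisons.

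KLF7, a factor best known from neurons and from adipose tissue, had the same order of groups. Its mean levels were 63.0 (M0), 32.2 (M1) and 92.5 (M2) normalized counts. The log2 ratios over M0 were -0.95 in M1 and 0.55 in M2, each short of 2-fold (with the groups scaled to equal totals the first was -1.01), while M2 over M1 gave 1.49. Normalized counts this low carry more counting error.

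KLF11 and KLF10, which were first described as early response genes of TGF-β and repress transcription through SIN3A, were less than 2-fold apart in every comparison. KLF11 had means of 1505 (M0), 1129 (M1) and 860 (M2) normalized counts, with log2 ratios of -0.41 and -0.81 over M0. M0 was highest and M2 lowest, and 11.1% of all genes had an M2 over M0 ratio as large. KLF10 had means of 893 (M0), 1068 (M1) and 859 (M2) normalized counts, with log2 ratios of 0.26 and -0.06 over M0, and 85.1% of all genes had an M2 over M0 ratio at least that large.

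KLF3, a repressor that recruits CTBP proteins, had means of 1463 (M0), 1966 (M1) and 1817 (M2) normalized counts. Both polarized states lay above M0, with log2 ratios of 0.43 and 0.31. KLF6, an activator linked in mouse macrophages to inflammatory gene expression, had means of 7543 (M0), 6680 (M1) and 6650 (M2) normalized counts. Its log2 ratios over M0 were -0.18 in M1 and -0.18 in M2, and M1 and M2 were 1.00 times apart. Against KLF6 within the same group, KLF4 was 0.503 times its M0 ratio in M1 and 3.35 times its M0 ratio in M2.

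Counted at 2-fold, M1 over M0 had 0 of 9 members higher, where 5.69% of all genes were higher, and 2 of 9 lower (KLF4 and EGR1), where 10.2% of all genes were lower. With equal totals KLF7 also reached 2-fold there, which made 3 of 9 lower. M2 over M0 had 2 of 9 higher (KLF4 and EGR2) against 3.40% of all genes, and 2 of 9 lower (EGR1 and EGR3) against 4.17%. M2 over M1 had 3 of 9 higher (KLF4, KLF7 and EGR2) against 8.22% of all genes, and 1 of 9 lower (EGR3) against 5.82%. The median log2 ratio of the members was -0.37 in M1 over M0, -0.06 in M2 over M0 and -0.01 in M2 over M1, with -0.02, 0.01 and 0.02 over all genes. With so few members these counts are a description of the list.

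**Figure D2:**
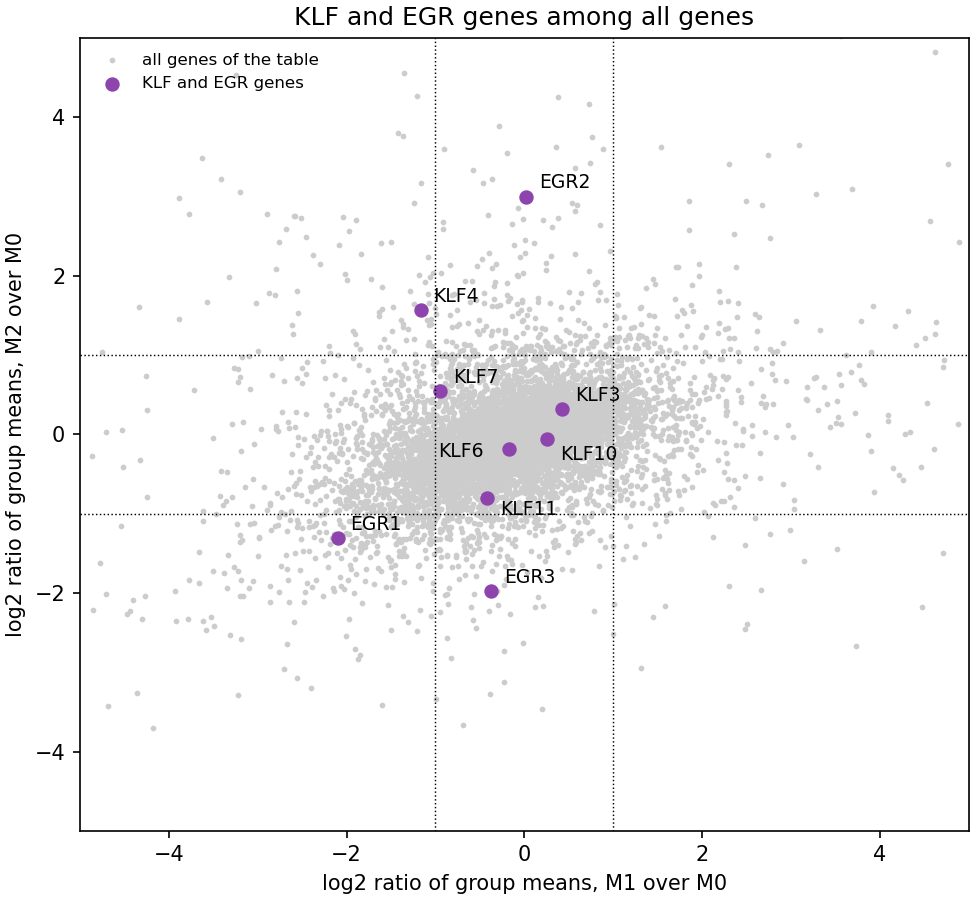
Log2 ratio of group means for M1 over M0 (horizontal) and M2 over M0 (vertical); grey points are all genes, purple points the 9 KLF and EGR genes, dotted lines mark 2-fold, and 34 genes fall outside the plotted range. EGR2 lies at 0.02 and 2.99, KLF4 at -1.17 and 1.56, and EGR1 at -2.10 and -1.31, while KLF3, KLF6 and KLF10 lie near the origin.

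Genes with the closest pattern were sought among 9466 named genes with a mean of at least 50 normalized counts over the 3 groups, by the distance between pairs of log2 ratios over M0. With 3 groups such a match fixes no more than the order and the size of the steps. EGR2 was closest to MYBPC2, a myosin-binding protein, at a distance of 0.17, followed by MATK, a tyrosine kinase that opposes SRC kinases, at 0.35 and CSF2, the cytokine GM-CSF, at 0.38. These distances were larger than the nearest one of any other member listed here. KLF4 was closest to F3, which encodes tissue factor, at 0.11, to ADD3, a membrane skeleton protein, at 0.13 and to the tetraspanin CD9 at 0.16.

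EGR1 was closest to DDIT4, a stress-induced inhibitor of MTORC1, at a distance of 0.05, to CATSPERG at 0.06 and to ZFP36L2, a protein that promotes decay of AU-rich mRNAs, at 0.11. DDIT4 had means of 2560, 584 and 1061 normalized counts in M0, M1 and M2. KLF7 was closest to CPNE3 at 0.01, with SCCPDH and the amino acid transporter SLC38A1 each at 0.06. EGR3 was closest to SMAD6, an inhibitor of BMP signaling, at 0.06, then to MAP3K20 at 0.25 and to OLR1, a receptor for oxidized LDL, at 0.26. EGR3 itself had a mean of 10.7 normalized counts over the 3 groups, below the 50 asked of the genes searched. With a pseudocount of 10 its M2 over M0 log2 ratio was -0.97 in place of -1.98, so its matches depend on the pseudocount.

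Of 16 listed KLF, SP and EGR relatives 7 were measured, and 1 of these, KLF1, is also an erythroid marker. In M1 over M0, 1 of 7 was at least 2-fold higher and 0 lower, beside 5.69% and 10.2% of all genes, and in M2 over M0, 0 of 7 were 2-fold apart. KLF9, a factor induced by glucocorticoid and thyroid hormone, had means of 218 (M0), 488 (M1) and 152 (M2) normalized counts, and its log2 ratio of 1.16 for M1 over M0 was the one ratio over M0 in this list to reach 2-fold. It was highest in M1, unlike KLF4, EGR2 and KLF7. SP1 and SP3, broadly expressed factors that bind the same GC-rich elements, had log2 ratios between -0.31 and -0.17 over M0. The EGR corepressors NAB1 and NAB2 had no 2-fold ratio in any comparison. NAB2, itself a known target of EGR proteins, was highest in M2, at 785, 613 and 1161 normalized counts in M0, M1 and M2, a log2 ratio of 0.92 for M2 over M1.

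Immediate early genes, the class to which EGR1 belongs, were mixed. Of 25 measured genes of 28 listed, 2 were at least 2-fold higher and 8 lower in M1 over M0, beside 5.69% and 10.2% of all genes. The median log2 ratio was -0.29. In M2 over M0, 2 were higher and 3 lower, beside 3.40% and 4.17% of all genes, with a median of 0.04. The nuclear receptor NR4A1 followed the order of EGR1, at 104.8, 18.4 and 27.9 normalized counts in M0, M1 and M2. FOS, a subunit of AP-1, was also highest in M0, at 20483, 7486 and 6035 normalized counts, but M2 was its lowest group. ATF3 and the phosphatase DUSP2 lay the other way, at log2 ratios of 1.51 and 1.26 for M1 over M0. PHLDA1, a pleckstrin homology protein induced by growth signals, had means of 528, 78.2 and 1030 normalized counts, the same order as KLF4, with a log2 ratio of 3.70 for M2 over M1.

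Of 14 genes of the SRF and ERK list, whose kinases and factors drive EGR genes, 1 was at least 2-fold higher and 0 lower in M1 over M0, beside 5.69% and 10.2% of all genes. In M2 over M0, 0 were 2-fold apart, beside 3.40% higher and 4.17% lower among all genes, and in M2 over M1, 1 was higher (MRTFB, a coactivator of SRF, at a log2 ratio of 1.04) and 1 lower (MAP2K2). SRF, the serum response factor, was at 982, 984 and 926 normalized counts in M0, M1 and M2. MAP2K2, which encodes the kinase MEK2, was the one higher in M1 and had a log2 ratio of 1.08 for M1 over M0. Among 8 measured feedback inhibitors of ERK signaling, DUSP6, an ERK phosphatase, was the one at least 2-fold apart over M0. DUSP6 stood at 10992 (M0), 3832 (M1) and 11324 (M2) normalized counts, a log2 ratio of -1.52 for M1 over M0 and 0.04 for M2 over M0.

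**Figure D3:**
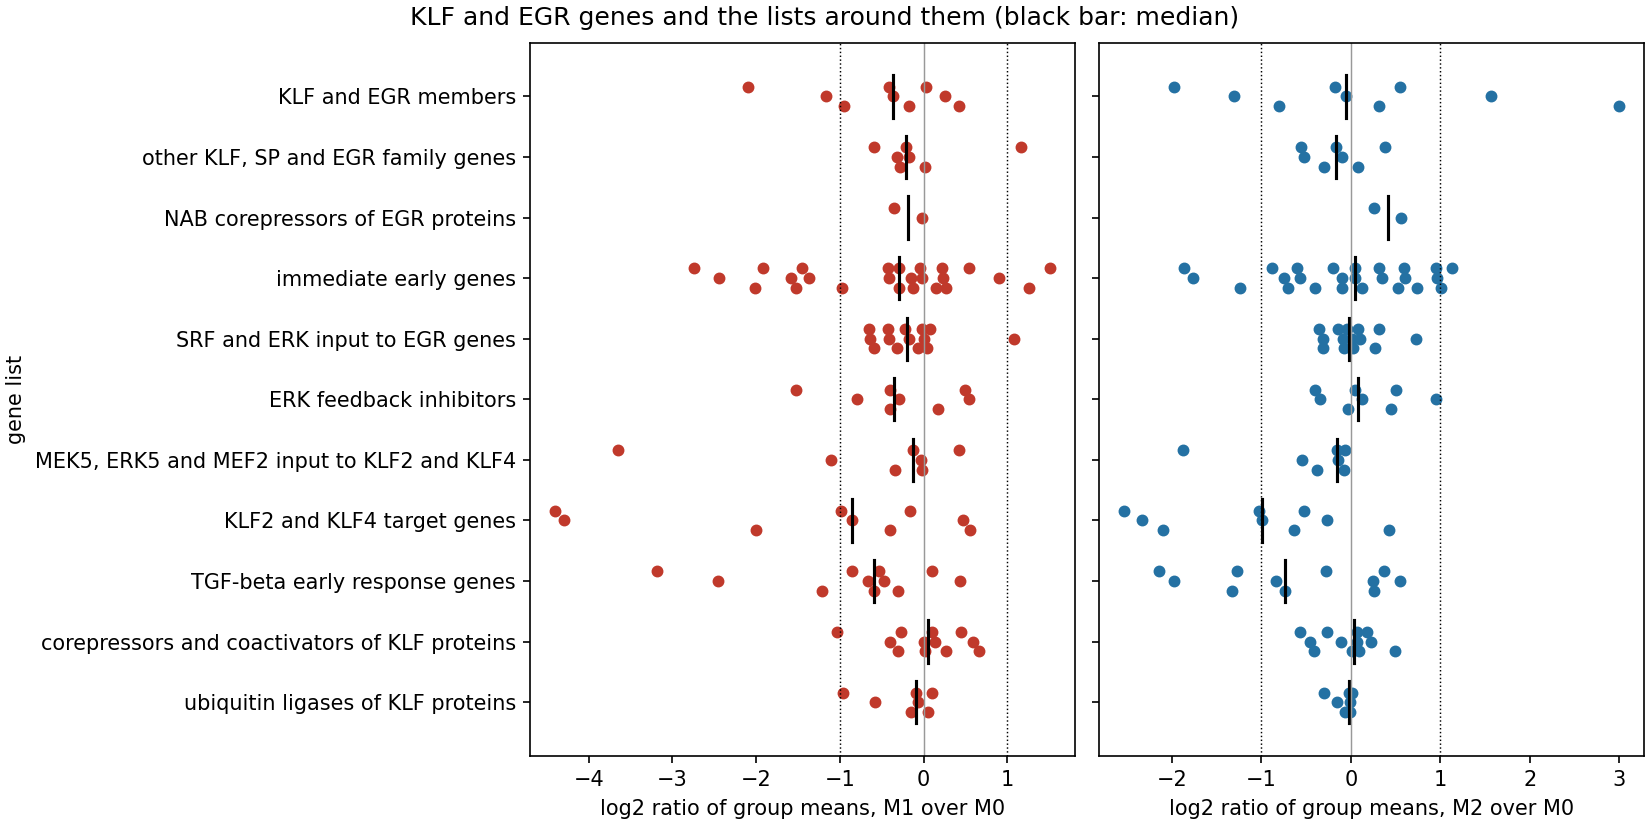
Log2 ratios of group means for M1 over M0 (left, red) and M2 over M0 (right, blue); each point is a gene of the list named at the left, a black bar is the list's median, and dotted lines mark 2-fold. The KLF and EGR members reach from -2.10 to 0.43 in M1 and from -1.98 to 2.99 in M2, and the genes for the KLF cofactors lie between -1.03 and 0.66 in M1.

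MEF2 factors act below the kinases MEK5 and ERK5 to induce KLF2 and KLF4. Of 7 genes on that list 2 were at least 2-fold lower in M1 over M0 (MEF2C and MEF2D), beside 10.2% of all genes. In M2 over M0, 1 was lower (MEF2C), beside 4.17% of all genes, and 0 were higher in either comparison. MEF2C had means of 1278, 100.5 and 348 normalized counts in M0, M1 and M2, log2 ratios of -3.66 and -1.87 over M0. MEF2C was thus lower in both polarized states, whereas KLF4 was lower in M1 alone. MAPK7, which encodes ERK5, was at 633, 581 and 600 normalized counts.

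Known targets of KLF2 and KLF4, described mainly in T cells and endothelium, had 9 of 10 genes measured. In M1 over M0, 0 were at least 2-fold higher and 3 lower, beside 5.69% and 10.2% of all genes. In M2 over M0, 0 were higher and 4 lower, beside 3.40% and 4.17% of all genes. The medians were -0.86 and -0.99. S1PR1, the receptor by which lymphocytes leave tissue, was at 1277, 63.9 and 253 normalized counts in M0, M1 and M2. TEK, the angiopoietin receptor, was at 947, 43.9 and 221. Both were highest in M0 and lowest in M1. In M2, where KLF4 was highest, S1PR1 and TEK lay below M0. The list was not split by the direction in which KLF factors act on a gene. THBD had the lowest M2 over M0 log2 ratio of the list, at -2.54, with means of 136.3 (M0), 33.3 (M1) and 22.7 (M2) normalized counts. CCND1 was lower in M2, at a log2 ratio of -1.02 over M0, and CDKN1A was the 1 measured gene above M0, at 0.42. TEK is also an endothelial marker. The endothelial list had 4 of 6 markers measured, with summed levels of 1243, 169 and 494 normalized counts to which TEK gave the most in M0, and the part of such cells was not tested.

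TGF-β early response genes, the class in which KLF10 and KLF11 were found, had 11 of 13 measured. In M1 over M0, 0 were at least 2-fold higher and 3 lower, beside 5.69% and 10.2% of all genes. In M2 over M0, 0 were higher and 4 lower, beside 3.40% and 4.17% of all genes. The medians were -0.60 and -0.74. The list was mixed in M2 over M0, with 7 of 11 log2 ratios below 0 and 4 above, TGFBI being highest at 0.54. ID1, an inhibitor of basic helix-loop-helix factors, and SMAD6 had log2 ratios of -2.14 and -1.97 for M2 over M0. SMAD7, on the same list, lay above M0 at 0.25. KLF11 had its lowest mean in M2, whereas KLF10 was close to M0 there, at -0.06. Whether KLF11 followed the genes of this list was not tested. PMEPA1, a TGF-β target, was at 1048, 191 and 1250 normalized counts in M0, M1 and M2, the order of KLF4.

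Genes for the proteins that KLF factors recruit, or that mark them for degradation, were read against the same shares of all genes (5.69% higher and 10.2% lower in M1 over M0, 3.40% and 4.17% in M2 over M0). Of 12 corepressors and coactivators, 0 were at least 2-fold higher and 1 lower in M1 over M0 (FHL3, at a log2 ratio of -1.03), and 0 were 2-fold apart in M2 over M0. CTBP2, a corepressor bound by KLF3, was at 1180, 1861 and 857 normalized counts in M0, M1 and M2. SIN3A, the partner of KLF10 and KLF11, was at 5331, 4411 and 6250. Of 7 ubiquitin ligases, 0 were 2-fold apart over M0 in either state, and the lowest was WWP1 in M1, at -0.97.

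Genes beside the members on the chromosome were looked up by gene order in the RefSeq annotation of the UU_Cfam_GSD_1.0 assembly, after the members' values had been seen. Of 18 protein coding neighbors 9 were measured, and 1 was 2-fold apart in M1 over M0 and 1 in M2 over M0. Among all genes 5.69% were higher and 10.2% lower in M1 over M0, and 3.40% and 4.17% in M2 over M0. ADO, a thiol dioxygenase gene next to EGR2, had means of 128, 140 and 357 normalized counts in M0, M1 and M2. Its log2 ratios were 0.12 for M1 over M0 and 1.47 for M2 over M0, the order of EGR2 at a smaller size. NRBF2, on the other side of EGR2, was lower in M1 and close to M0 in M2, at -0.61 and -0.06. TLR10, next to KLF3, was the other neighbor at least 2-fold apart over M0, at -1.25 in M1, on a mean of 41.9 in M0. ETF1 beside EGR1, CREB1 beside KLF7 and BIN3 beside EGR3 had log2 ratios between -0.23 and 0.27 over M0. Larger ratios short of 2-fold, in M1 and M2 over M0, were those of TBC1D1 beside KLF3 (-0.35 and -0.66) and AZIN1 beside KLF10 (0.51 and 0.17). GRHL1 beside KLF11 had 0.73 and 0.50, on a mean of 9.72 in M0.

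In that annotation 3 members (KLF7, EGR2 and EGR3) overlap a noncoding gene model and 0 overlap another protein coding one. The sources used here do not state whether counting used the strand, and without strand the reads of such a partner and of the member cannot be told apart.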

How the data were processed

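RNA from 9 cultures (3 each of M0, M1 and M2) was measured by poly-A RNA sequencing. In the pipeline of the authors, run in Partek Flow 7.0, filtered reads were mapped to the CanFam3.1 assembly by STAR 2.7.3a, HTSeq gave the counts for genes, and DESeq2 was used to compare groups. The deposited signal values used here are the authors' least squares means of normalized counts for each group, restricted to protein coding genes (12696 genes, 1762 of them with an identifier and no symbol). Depth per sample is unknown from these values, and the means summed to 26728643 in M0, 28039918 in M1 and 27312028 in M2. The same sheet has 15 columns with the authors' own ratios, fold changes and p-values, and 3 further files hold their log2 ratios. None of these was used, and 0 columns of per-sample values were left out.

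Ratios were taken as log2 with a pseudocount of 1, with Python 3.11.15, numpy 2.4.6 and pandas 2.3.3. The computation was run on simulated means without noise, with shifts past 2-fold planted in genes with an M0 mean of at least 50. That run checked the arithmetic only and did not cover low means. No test was run, since group means carry no replicate error. The members and lists were chosen with earlier results of these data known. All measured members are named. From 12 pathway lists and 10 marker lists the text names, per comparison, at most the 2 highest and 2 lowest genes with a mean of at least 50, with genes that define a cytokine response, and 3 nearest genes per member that was 2-fold apart in some comparison. Outside that rule, KLF1, CD3D and MPO are named with means under 50. SRF, SP1, SMAD7 and the chromosomal neighbors were chosen after values were seen. A planned search of promoters for motifs was not run here. Alternatives were other pseudocounts, fold thresholds, a filter on low means and other scalings.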

Additional observations from a re-analysis of the deposited data

How the results depend on the processing

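No paired analysis was possible because the values used are group means. For the same reason no replicate could be left out and no error or call stands behind any ratio. Across 4 other pseudocounts and scalings no log2 ratio of a member that reached 2-fold changed sign, and the largest shift of a member's ratio was 1.00, for EGR3 with a pseudocount of 10. Equal totals moved ratios by at most 0.07 and turned the sign of 2 ratios close to 0, those of EGR2 in M1 over M0 (-0.05) and KLF6 in M2 over M1 (0.03), and they brought KLF7 to -1.01 in M1 over M0, so that 3 members were lower there in place of 2. At a log2 ratio of 1.5, 1 member was lower in M1 over M0 and 1 in M2 over M0, in place of 2 and 2. With a pseudocount of 10, or with genes of a mean under 50 left out, 1 member was lower in M2 over M0 and 0 in M2 over M1, in place of 2 and 1. Among all genes, a threshold of 1.5 left 349 higher and 610 lower in M1 over M0, 199 and 191 in M2 over M0, and 542 and 373 in M2 over M1. A threshold of 1.5-fold gave 1716 and 2429, 930 and 1336, and 1985 and 1500. At 2-fold the counts were 722 and 1292, 432 and 530, and 1043 and 739. Leaving out low means gave 861 lower in M1 over M0 and 345 lower in M2 over M0. Of 72 counts over pathway lists, a threshold of 1.5-fold moved 24 by over 1.5 times, a log2 ratio of 1.5 moved 15 and equal totals moved 3: immediate early genes higher in M2 over M0 (1 in place of 2), SRF and ERK genes lower in M2 over M1 (0 in place of 1) and ubiquitin ligases lower in M1 over M0 (1 in place of 0). Centring moved the first of these alike. Low levels limit EGR3 and KLF7 most.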
